A study of Homo sapiens with 16 samples.

Results

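The genes described here carry out glycolysis or respond to the hypoxia-inducible factors (HIF). They were chosen by name from a list of 40 genes, with earlier results of these data known, and 38 of the 40 were found among the 11282 genes of the deposited table. They comprised 13 core glycolytic enzymes, 4 genes of sugar and lactate transport and of glycolytic control (SLC2A1, SLC16A3, PFKFB3 and PFKFB4), 20 other HIF targets, and HIF1A itself. ALDOC and PGAM1 were not analysed here. All 38 passed the filter on low values, which kept 10826 genes that reached 5 in 2 or more libraries. PFKFB4 passed it only through the first plko library and the second KLF5 library.

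HCC70, a human basal-like breast cancer cell line, was infected with shRNA constructs in 96-well plates, and RNA was counted by a CEL-seq method, which reads the 3′ end of each transcript. The 16 libraries comprised 2 for each of 8 construct names, here called constructs. These were hairpins against 4 transcription factors (KLF5, RBPJ, NFIB, FOXA1) and control hairpins named shRFP, shLACZ and shLUC. The last was plko, which bears the name of a lentiviral vector for hairpins. The 6 shRFP, shLACZ and shLUC libraries served together as hairpin controls, and plko was kept apart. All groups were the same cell line in the same medium. Each library carried a construct identifier of its own, so 2 libraries of the same name may carry different sequences. Nothing in the labels says that they came from separate cultures. The p-values therefore measure the spread between libraries, which may be partly technical and may partly come from differing sequences. Values are the deposited normalised read counts, here called values. The labels name no oxygen treatment.

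HIF is a transcription factor whose alpha subunit, encoded by HIF1A, is made continuously and destroyed when oxygen is plentiful. The prolyl hydroxylases EGLN1 and EGLN3 mark the protein for destruction by the VHL ubiquitin ligase, and in low oxygen the protein escapes, pairs with ARNT and binds the letters ACGTG or GCGTG near its targets. Those targets include most enzymes that turn glucose into lactate, which tumour cells also express at high levels when oxygen is plentiful, and genes for angiogenesis, acid balance, mitophagy and collagen modification. Regulation of HIF is largely at the protein level, which these libraries do not measure.

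Promoters are shown because the letters that HIF binds occur in those of both the HIF targets and the enzymes. RefSeq promoters (GRCh38.p14, the 250 bases before the annotated start) matched 34 of the 38 members; BNIP3L, HILPDA, NDRG1 and VEGFA are named only. The letters ACGTG were searched on both strands, so that CACGT on the printed strand is also a match, and the palindrome CACGTG, the E-box that MYC binds, counts as both. They were present in 7 of 13 promoters of core enzymes (53.85%) and in 9 of 16 of other HIF targets (56.25%), against 18.68% of the 27305 promoters in the table. With GCGTG allowed as well, 24 of 34 members held a match (70.59%), against 43.08% of all promoters, and CACGTG was found in 4 of 34 (11.76%) against 6.49%. A match is a description of the letters, not of binding. Every promoter printed below holds ACGTG on 1 strand or both, as 16 of the 34 did, so they do not represent the members. Of the members that passed below against the hairpin controls, HIF1A, PFKL, TPI1, PKM, ENO1, PFKP and PLOD1 held no ACGTG and are not printed. ALDOA, which held 1, is not printed either. Of the promoters below, those of ANKRD37, CA9, BNIP3 and PGK1 belong to members that were highest of all libraries in the first plko library, and those of LDHA and GAPDH to enzymes that were not. All are printed 5′ to 3′ on the gene's strand, with the matches in capitals.
ANKRD37, chr4:185396591-185396840 (plus strand): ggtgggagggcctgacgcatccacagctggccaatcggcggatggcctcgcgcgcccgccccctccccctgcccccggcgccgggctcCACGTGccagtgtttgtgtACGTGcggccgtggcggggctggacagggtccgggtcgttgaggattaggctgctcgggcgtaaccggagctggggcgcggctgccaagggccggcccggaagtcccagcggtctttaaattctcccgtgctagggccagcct
CA9, chr9:35673678-35673927 (plus strand): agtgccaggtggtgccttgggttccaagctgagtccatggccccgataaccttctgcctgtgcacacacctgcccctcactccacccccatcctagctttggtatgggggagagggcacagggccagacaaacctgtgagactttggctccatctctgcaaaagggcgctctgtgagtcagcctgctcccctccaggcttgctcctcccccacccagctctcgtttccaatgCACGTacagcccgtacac
BNIP3, chr10:131981924-131982173 (minus strand): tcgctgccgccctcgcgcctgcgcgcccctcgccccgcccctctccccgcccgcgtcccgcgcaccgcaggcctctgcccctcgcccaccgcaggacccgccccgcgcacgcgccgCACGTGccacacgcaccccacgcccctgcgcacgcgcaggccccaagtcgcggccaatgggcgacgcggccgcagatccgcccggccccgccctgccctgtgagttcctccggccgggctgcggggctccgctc
PGK1, chrX:78103998-78104247 (plus strand): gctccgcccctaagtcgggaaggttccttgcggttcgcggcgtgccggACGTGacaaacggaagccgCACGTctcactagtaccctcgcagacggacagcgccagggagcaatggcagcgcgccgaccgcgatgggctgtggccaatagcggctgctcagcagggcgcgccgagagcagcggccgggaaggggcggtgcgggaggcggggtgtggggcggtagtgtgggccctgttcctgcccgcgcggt
LDHA, chr11:18394313-18394562 (plus strand): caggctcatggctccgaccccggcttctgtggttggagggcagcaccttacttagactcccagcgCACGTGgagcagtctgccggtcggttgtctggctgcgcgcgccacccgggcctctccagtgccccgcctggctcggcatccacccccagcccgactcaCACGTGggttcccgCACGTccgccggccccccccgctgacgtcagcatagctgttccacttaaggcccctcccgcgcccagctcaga
GAPDH, chr12:6535014-6535263 (plus strand): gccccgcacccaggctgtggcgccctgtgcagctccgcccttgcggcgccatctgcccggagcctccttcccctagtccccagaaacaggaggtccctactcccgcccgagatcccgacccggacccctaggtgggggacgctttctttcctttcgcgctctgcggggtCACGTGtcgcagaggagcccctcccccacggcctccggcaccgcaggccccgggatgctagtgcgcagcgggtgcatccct
LDHA held the most matches of the 34 members, 5 counting overlapping ones, and ANKRD37 held 3. SLC2A1, PFKP, PKM, TPI1, HK1, SLC16A3, PDK1, EGLN3, MXI1 and P4HA2 held neither set of letters in this window.

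Depth ranged from 375713 recovered reads in plko 1 to 3090666 in RBPJ 1, with FOXA1 2 (537502) and shLACZ 1 (580015) next to plko 1. One library stood apart: plko 1 was the highest of the 16 libraries for 16.3% of all genes tested and the lowest for 15.1%, more than any other library, so calls that involve plko are given with and without it. The targeted factors were below all 6 hairpin controls in both libraries for KLF5 (62.6 and 37.3 against 98.7 ± 10.0, SD, n = 6), NFIB (238 and 42.2 against 335 ± 22.7) and FOXA1 (24.4 and 58.6 against 99.97 ± 33.5), each at an exact permutation p of 0.0357, the smallest that 28 arrangements allow. RBPJ was 8.53 in RBPJ 2, and 43.3 in the library labelled RBPJ 1, where the controls ranged from 43.1 to 54.9 (exact permutation p = 0.0714), so the latter library shows no lowering of its target. Epithelial markers summed to between 7709.8 and 15241 in every library, so the markers of the labelled cell type were present throughout. Of 11 fibroblast and endothelial markers only 5, and of 7 leukocyte markers only 2, had rows to sum. The RNA comes from whole wells, so that a change in the share of cells and a change in RNA per cell cannot be told apart for any gene below.

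The HIF targets other than the enzymes were set apart by a single library. In plko 1, 18 of the 20 were at their highest value of all 16 libraries, where 16.3% of all genes were, and none was at its lowest. The exceptions were PLOD1, a lysyl hydroxylase of collagen, at 57.4 in plko 1 and at most 95.2 in the controls, and ANGPTL4, a secreted inhibitor of lipoprotein lipase, at 17.6. Over the 20 genes, plko 1 lay at a median of 1.65 above the control mean on the log2(value + 1) scale, and plko 2 at −0.08; the median over all genes was 0.01 in plko 1 and 0.02 in plko 2. No other library held the highest value for more than 1 of the 20. FOXA1 2 (537502 reads) and shLACZ 1 (580015), both deeper than plko 1 (375713), held it for 0 of the 20 (5.73% and 6.35% of all genes). Any part of depth in the plko 1 values was not tested. The 2 plko libraries carry different construct identifiers in the labels, and what separates them otherwise is not given there.

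**Figure D1:**
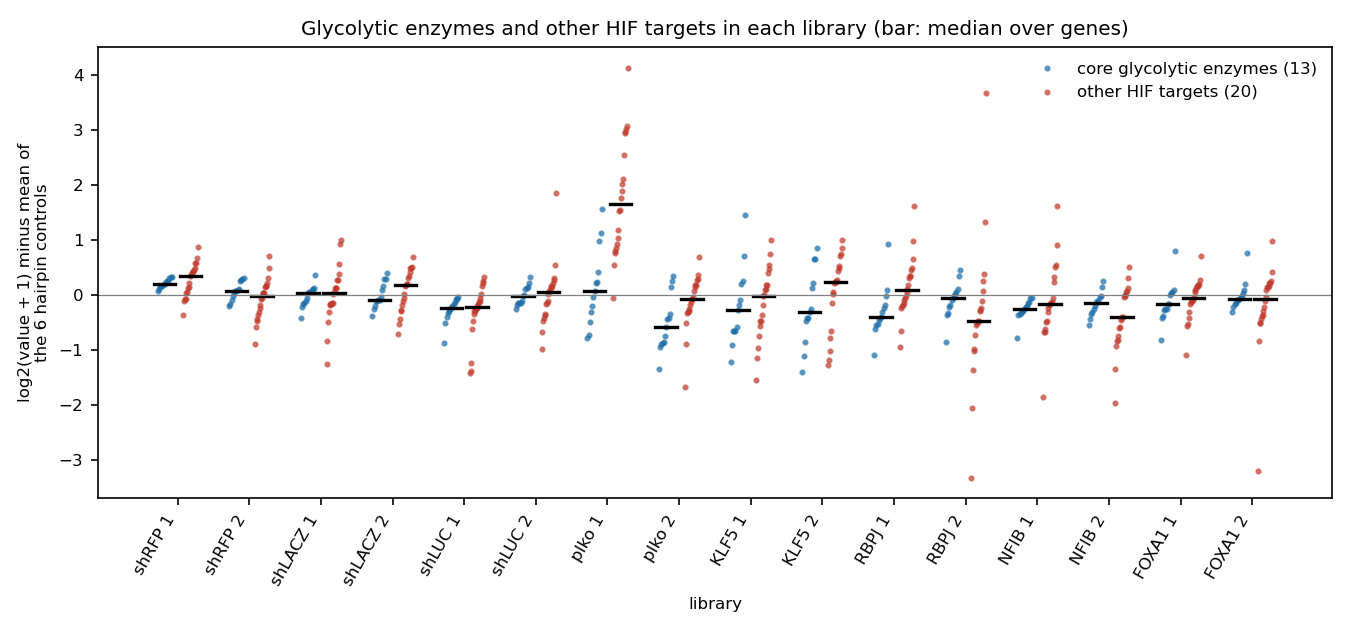
Difference of each member from the mean of the 6 hairpin controls, on the log2(value + 1) scale (vertical axis), in each of the 16 libraries (horizontal axis), with core enzymes and other HIF targets drawn apart; each point is a gene and each bar a median. The HIF targets of plko 1 lie at a median of 1.65 while its enzymes lie at 0.08.

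ANKRD37, an ankyrin-repeat gene that HIF induces strongly, had a value of 110.3 in plko 1, which rests on 50 reads. It was 9.29 in plko 2, and in the controls its lowest, median and highest values were 3.15, 5.88 and 7.65. The plko 1 value was 19.7 times the control mean, the largest ratio among the 20 targets. ANKRD37 was 7.82 and 11.7 with KLF5, 4.72 and 2.84 with RBPJ, 10.9 and 3.80 with NFIB, and 5.93 and 4.51 with FOXA1, so no other library passed 11.7. ADM, which encodes the vasodilator adrenomedullin, was 225 in plko 1 (102 reads) and 20.4 in plko 2, against 18.3, 25.2 and 37.5 in the controls. ADM was 18.5 and 31.5 with KLF5, 33.6 and 66.4 with RBPJ, 32.8 and 32.5 with NFIB, and 24.4 and 21.0 with FOXA1, so that RBPJ 2 was its second-highest library.

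CA9, the cell-surface carbonic anhydrase that exports acid from hypoxic tumour cells, was 346 in plko 1 (157 reads) and 39.7 in plko 2. The controls ranged from 15.1 to 80.3 with a median of 47.0. CA9 was 85.3 and 77.0 in the KLF5 libraries, 53.5 and 3.32 in the libraries labelled RBPJ 1 and RBPJ 2, 10.9 and 16.0 with NFIB, and 38.8 and 46.6 with FOXA1. Its spread was therefore wide also away from plko, and the 2 RBPJ libraries lay on either side of the control mean. VEGFA, the principal angiogenic ligand of the set, was 371 in plko 1 (168 reads) and 134 in plko 2, against 78.1, 113 and 135 in the controls. KLF5 libraries gave 161 and 148 for VEGFA, above every control, RBPJ gave 124 and 41.7, NFIB 92.9 and 64.5, and FOXA1 113 and 76.6.

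The remaining targets that were over 2-fold above the control mean in plko 1 covered several roles. NDRG1, a stress-responsive differentiation gene, was 7.71 times the control mean there (1729.7 against 224 ± 37.5) and 156 in plko 2. EGLN3, the prolyl hydroxylase that HIF induces as its own brake, was 7.84 times (115 against 14.6 ± 4.68), whereas EGLN1, the main oxygen sensor, was 1.70 times (81.6 against 48.0 ± 7.16). DDIT4, an inhibitor of mTORC1, was 5.72 times (161 against 28.2 ± 9.42). The mitophagy receptors BNIP3L and BNIP3 were 4.22 and 3.46 times the control mean, and P4HA1, a collagen prolyl hydroxylase, 4.12 times. MXI1, a MYC antagonist, HILPDA, which coats lipid droplets, and ERO1A, an oxidase of the endoplasmic reticulum, stood at 2.92, 2.68 and 2.28 times. Over the 20 targets the median ratio of plko 1 to the control mean was 3.12. The median log2(value + 1) difference over all genes was 0.01 there. The share of all genes over 2-fold in plko 1 was not counted. The other members of the group, PLOD2, P4HA2, PDK1 and KDM3A, were 1.79, 1.71, 1.79 and 1.41 times, the last a histone demethylase at only 9 reads. PDK1, the kinase that keeps pyruvate out of the mitochondria, was 30.9 in plko 1 and 14.9 in plko 2, against 9.52, 13.7 and 29.7 in the controls, so that its plko 1 value hardly left the control range. PDK1 was 17.1 and 16.3 with KLF5, 15.7 and 10.9 with RBPJ, 9.57 and 10.1 with NFIB, and 26.3 and 12.0 with FOXA1.

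**Figure D2:**
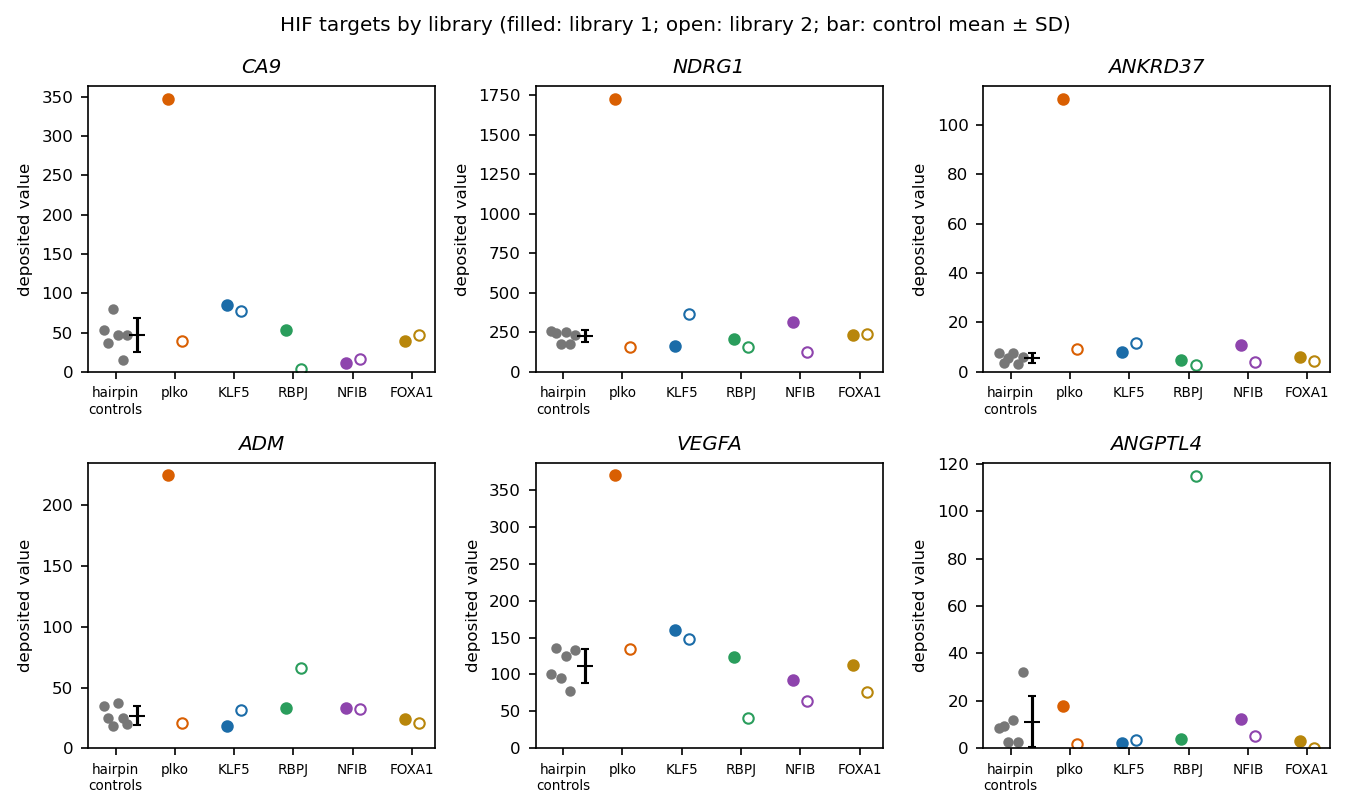
Deposited values (vertical axes, linear, each from 0) of CA9, NDRG1, ANKRD37, ADM, VEGFA and ANGPTL4 in the 6 hairpin controls (gray, with mean and SD) and the 2 libraries of each other construct (filled for library 1, open for library 2). In 5 of the panels plko 1 stands far above every other library, and in the ANGPTL4 panel RBPJ 2 does.

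With both plko libraries as a group, the comparison asks how the 2 libraries of that name differ from the hairpin controls. Their construct identifiers differ, so whether both hold the same vector is not known. By limma with Benjamini-Hochberg adjustment over all genes, 6 of the 38 members passed an adjusted p of 0.05 (2 higher and 4 lower), against 7.5% of all genes tested (1.88% higher, 5.63% lower). Of the HIF targets other than enzymes, ANKRD37 rose (log2 difference 2.41, SE 0.59, adjusted p = 0.0154) and none fell. Of 20 targets 18 had a positive difference and the median was 0.85, while the median over all genes was 0.01. EGLN3 (1.56, adjusted p = 0.0529), P4HA1 (1.19, 0.0536) and VEGFA (1.02, 0.0615) were nearest to the threshold. Which targets passed depended on the test. By edgeR on the recovered reads ADM, EGLN3 and NDRG1 rose beside ANKRD37 (8 members called, 3.53% of all genes), and by DESeq2 ADM, EGLN3, MXI1, NDRG1, P4HA1 and VEGFA rose (11 members called, 6.49% of the genes given an adjusted p), where ANKRD37 was given none. Without plko 1, ANKRD37 no longer passed in limma (0.69, adjusted p = 0.776) and PFKP was the 1 member called (1.21% of all genes). Without plko 2, 16 members passed, all of them higher, where 2.81% of all genes were called higher, under the assumption that the lone plko 1 library varies like the other groups; 13 were HIF targets, with ADM at 3.06 (adjusted p = 5.5e-05) and NDRG1 at 2.96 (5.1e-05).

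Genes outside the list that HIF is also known to induce gave a smaller share. Of 36 further HIF-responsive genes 32 were in the table, and plko 1 was the highest library for 14 of them (43.75%, against 16.3% of all genes), among them LOX, BHLHE40, STC2, FAM162A and IGFBP3. Their median ratio of plko 1 to the control mean was 1.498. In the limma fit 3 of the 32 rose in plko, namely the glycogen branching enzyme GBE1 (88.2 and 49.6 against 30.3 ± 7.78, log2 difference 1.15, adjusted p = 0.0179), the collagen cross-linker LOX (30.9 and 5.58 against 3.04 ± 2.0, 1.99, 0.0345) and TMEM45A (285 and 112 against 92.5 ± 18.4, 0.96, 0.0336). None fell. For these 3 genes too, plko 1 had the larger value of the pair, and without it none of them passed (GBE1 0.74, adjusted p = 0.485; LOX 0.85, 0.752; TMEM45A 0.30, 0.811). Of the neighbouring carbon metabolism genes, plko 1 was the highest library for 12 of 27.

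With the KLF5 hairpins, 1 of the 20 HIF targets other than enzymes passed, where limma called 11% of all genes (4.42% higher, 6.61% lower). Of the 20, PLOD1 fell and none rose, and the median log2 difference was 0.09 beside 0.05 for all genes. PLOD1 was 26.3 and 25.7 with KLF5, below all controls (43.9, 54.7 and 95.2), with a log2 difference of −1.16 (SE 0.30, limma adjusted p = 0.0135). PLOD1 was 57.4 and 31.6 with plko, 37.3 and 77.8 with RBPJ, 53.3 and 62.0 with NFIB, and 48.1 and 79.6 with FOXA1. Its relative PLOD2 was 258 and 218 with KLF5, above all controls, but did not pass (0.62, adjusted p = 0.0724). VEGFA, ERO1A and ANKRD37 were also above all controls in both KLF5 libraries, and PLOD1 was below them; of all genes, 14.3% lay above and 13.4% below in that way. CA9 (0.93, adjusted p = 0.419) did not pass.

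RBPJ is the DNA-binding factor of Notch signalling. None of the 38 members passed against the hairpin controls by limma, edgeR or DESeq2, where limma called 0.0277% of all genes. At an unadjusted p under 0.05 there were 4 of 38 members and 651 of 10826 genes. The 2 libraries differed widely: RBPJ 2 was the lowest of the 16 libraries for 7 of the 20 HIF targets (35%, against 8.7% of all genes), and the library labelled RBPJ 1 for none of them (1.91% of all genes). CA9 at 3.32, VEGFA at 41.7, ANKRD37 at 2.84, DDIT4 at 5.69, MXI1 at 26.1, EGLN1 at 33.2 and PLOD2 at 75.4 made up the 7. ANGPTL4 went the other way, at 115 in RBPJ 2 and 3.73 in the library labelled RBPJ 1, against 2.52, 9.04 and 32.0 in the controls. DDIT4 was 84.5 in the library labelled RBPJ 1, so the pair spanned the control range of 16.1 to 40.8. Without the library labelled RBPJ 1, whose target was not lowered, 4 members passed in limma, where 1.88% of all genes did, the lone RBPJ 2 library being assumed to vary like the others: CA9 (−3.31, adjusted p = 0.00637), PLOD2 (−1.02, 0.0336) and VEGFA (−1.37, 0.0481) were lower and ANGPTL4 (3.67, 0.0395) higher.

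NFIB and FOXA1 hairpins gave no call among the 38 members with limma, edgeR or DESeq2; limma called 0.00924% of all genes in each comparison. At an unadjusted p under 0.05 the counts were 5 members and 707 genes for NFIB, and 2 members and 753 genes for FOXA1. With NFIB, the HIF targets had a median log2 difference of −0.16, and 5 of 20 were positive. ERO1A (175 and 127 against 223 to 266), PLOD2 (96.4 and 117), EGLN1 (33.5 and 35.9) and EGLN3 (8.88 and 10.1) were below all 6 controls in both NFIB libraries, as were 4.47% of all genes. CA9 had the lowest difference (−1.59, adjusted p = 0.733) and DDIT4 the highest (84.1 and 28.3, 0.84, adjusted p = 0.853), neither clear of the controls. DDIT4 elsewhere was 23.5 and 10.5 with KLF5, 21.7 in plko 2, and 17.8 and 54.1 with FOXA1. With FOXA1 the median was −0.01 and 10 of 20 were positive. ANGPTL4 was 3.29 and 0 there, and 12.3 and 5.06 with NFIB, 2.13 and 3.50 with KLF5, and 17.6 and 1.86 with plko; its FOXA1 difference was −2.14 (adjusted p = 0.66), on a gene of few reads.

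The transport and control genes form a small group between the others. SLC2A1 encodes GLUT1, the glucose importer. It was 185 in plko 1 and 62.6 in plko 2, against 32.4, 92.9 and 109.5 in the controls, and 56.9 and 77.0 with KLF5, 71.9 and 112 with RBPJ, 91.6 and 80.6 with NFIB, and 77.0 and 109.7 with FOXA1. Only plko 1 stood clear of the rest. PFKFB3 and PFKFB4 make and break the allosteric activator of phosphofructokinase. PFKFB3 was 192 in plko 1 and 86.1 in plko 2 against 71.5 ± 15.5, and PFKFB4 was 8.82 in plko 1, on 4 reads. SLC16A3, the lactate exporter MCT4, did not share the pattern: it was 30.9 and 27.9 with plko within the control range of 27.8 to 49.3. It was 49.9 and 56.5 with NFIB, above all controls, as 4.97% of all genes were. None of the 4 passed in any of the 6 comparisons. SLC2A1, PFKFB3 and PFKFB4 were highest in plko 1, where 16.3% of all genes were. PFKFB4 passed the filter on low values only through plko 1 and KLF5 2, so its rank was partly set by the filter.

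The core enzymes lay below the HIF targets by median in both plko libraries, in unlike ways. In plko 1 the enzymes lay at 0.08 from the control mean and the targets at 1.65. In plko 2 the enzymes lay at −0.58 and the targets at −0.08. The plko 2 gap of −0.50 was not particular to plko, with −0.49 in the library labelled RBPJ 1 and −0.54 in KLF5 2. Of the 13 enzymes, 4 were the highest of all libraries in plko 1 (16.3% of all genes) and 4 the lowest in plko 2 (5.27%). In the comparison of plko with the hairpin controls, 1 enzyme rose and 4 fell, and the median difference was −0.31. PKM, pyruvate kinase, was 1037 and 892 with plko and 1514, 1699.6 and 1924 in the controls, and fell by 0.83 (SE 0.19, limma adjusted p = 0.00972). PFKP, the platelet phosphofructokinase, was 271 and 133 against 274, 333 and 415, a log2 difference of −0.82 (adjusted p = 0.0314). ALDOA, aldolase, was 249 and 234 against 302, 439.8 and 528 (−0.82, adjusted p = 0.0206), and ENO1, enolase, was 2608 and 1975 against 3070.5 or more in every control (−0.69, adjusted p = 0.0287). All 4 lay below every control in both plko libraries, as 12.3% of all genes did.

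PGK1, phosphoglycerate kinase, was the enzyme that rose: 2213 and 1198 against 844, 996 and 1261 (0.69, adjusted p = 0.0368). Its groups overlapped, and plko 1 alone was above the controls. TPI1, triosephosphate isomerase, split the pair, at 613 in plko 1 and 293 in plko 2, against 464, 542 and 579. GAPDH, the glyceraldehyde-phosphate dehydrogenase, did so as well, at 675 and 413 against 614, 674 and 794. LDHA, which makes lactate, was 309 and 197 against 210.5, 266 and 317. ENO2, the neuronal enolase, was 55.2 in plko 1, 2.92 times the control mean, on 25 reads, and HK2, the inducible hexokinase, was 26.5, or 2.02 times, on 12 reads, and 16.7 in plko 2. Without plko 1 the enzyme call that remained was PFKP (−1.33, adjusted p = 0.0118); PKM was then at −0.94 (0.0641), ENO1 at −0.89 (0.0728), ALDOA at −0.87 (0.169) and PGK1 at 0.25 (0.783). Without plko 2, PGK1 (1.13, 0.00254) and ENO2 (1.56, 0.0418) were the enzymes that passed, and PKM (−0.72, 0.062), ALDOA (−0.78, 0.0785), ENO1 (−0.49, 0.195) and PFKP (−0.31, 0.477) did not. Single control libraries also decided some calls: PFKP was lost without shRFP 1, shLACZ 1 or shLUC 2, ENO1 without shRFP 1 or shLACZ 1, and PGK1 without shLACZ 1, shLACZ 2, shLUC 1 or shLUC 2, at adjusted p up to 0.0698. Without shLACZ 1 the count was 3 members (5.93% of all genes), and it was 11 without RBPJ 1 (9.38%) or without RBPJ 2 (9.32%).

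**Figure D3:**
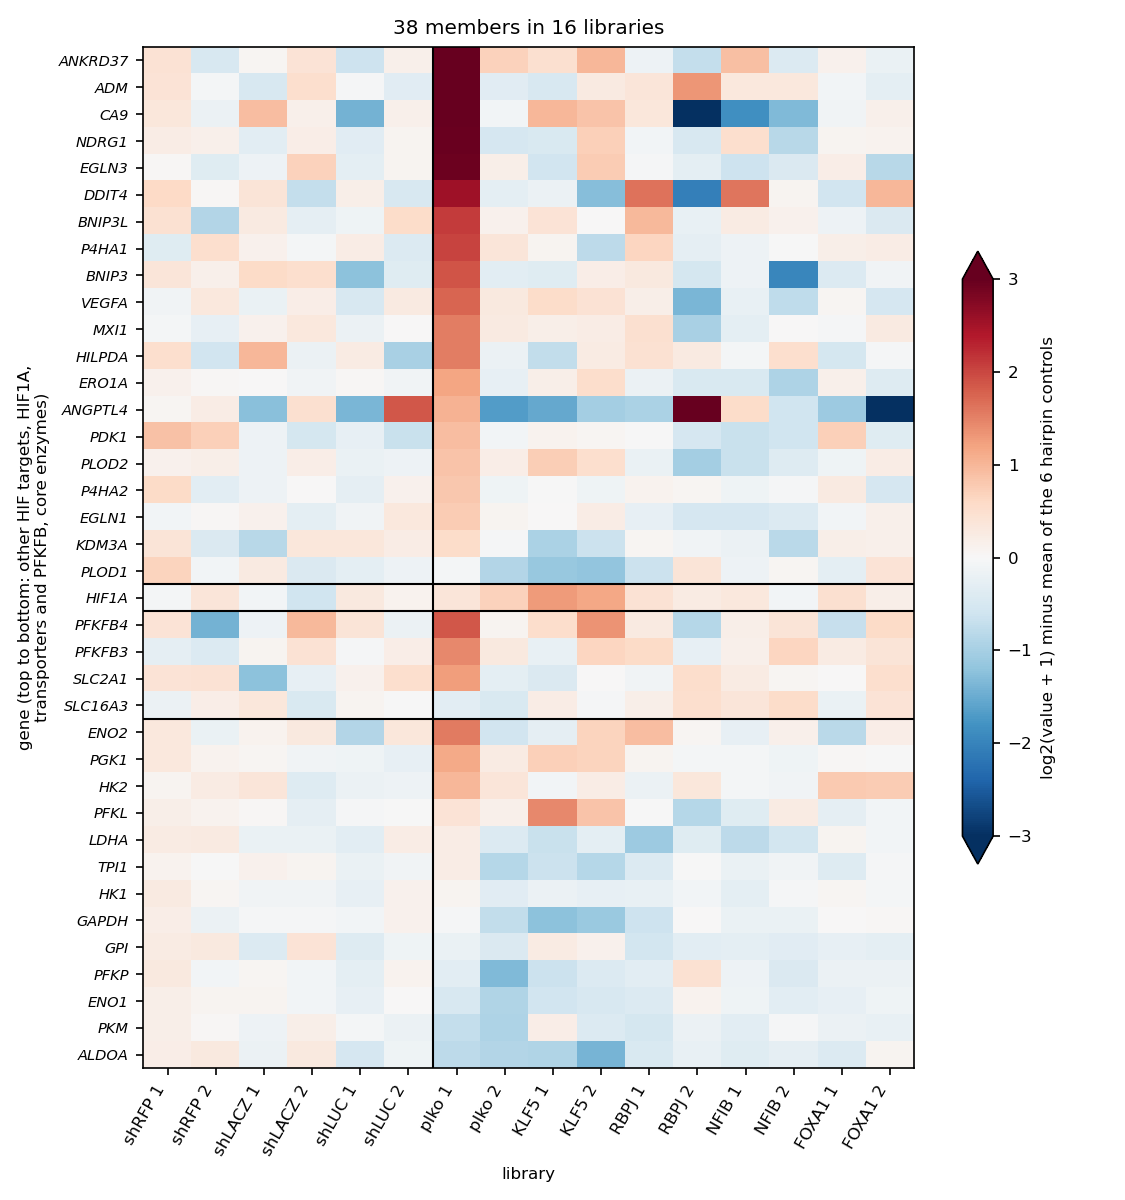
Difference of each of the 38 members (rows, by group) from the mean of the 6 hairpin controls on the log2(value + 1) scale, in each of the 16 libraries (columns), on a colour scale centred at 0. The plko 1 column is raised along the HIF target rows, and the KLF5 and plko 2 columns are lowered along several enzyme rows.

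KLF5 is a zinc-finger factor of epithelial cells. Its hairpins changed 5 of the 13 core enzymes: PFKL and PGK1 rose, and ALDOA, GAPDH and TPI1 fell. With HIF1A and PLOD1, 7 of the 38 members passed (3 higher and 4 lower), against 11% of all genes tested (4.42% higher, 6.61% lower). The median over the enzymes was −0.21, and over all genes 0.05. At an unadjusted p under 0.05 there were 12 members and 2701 genes.

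PFKL, the liver-type phosphofructokinase, was 181 and 120.2 with KLF5, above 54.6, 66.1 and 73.9 in the controls, and rose by 1.15 (SE 0.24, limma adjusted p = 0.00214). It was 88.2 and 72.5 with plko, 65.1 and 36.04 with RBPJ, 50.6 and 78.5 with NFIB, and 54.0 and 61.6 with FOXA1, so that the KLF5 libraries were the top pair of the 16. PGK1 was 1658 and 1594 with KLF5 and rose by 0.69 (SE 0.20, adjusted p = 0.027), and it was 1075 and 969 with RBPJ, 968 and 918 with NFIB, and 1032 and 996 with FOXA1. GAPDH was 296 and 319.7 with KLF5, and its log2 difference was −1.17 (SE 0.19, adjusted p = 3e-04). It was 451 and 699 with RBPJ, 598 and 599.9 with NFIB, and 693 and 712 with FOXA1. The KLF5 values were thus the lowest pair of the 16 libraries.

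ALDOA was 227 and 161 with KLF5, below all controls, a difference of −1.16 (SE 0.21, adjusted p = 0.000802). It was 311 and 368 with RBPJ, 335 and 357 with NFIB, and 321 and 455 with FOXA1. TPI1 was 338 and 293 with KLF5, a difference of −0.75 (SE 0.21, adjusted p = 0.0224). It was 400.3 and 525.8 with RBPJ, 461 and 491 with NFIB, and 406 and 515 with FOXA1. ENO1 (2466 and 2644, −0.52, adjusted p = 0.0816) and PFKP (215 and 252, −0.53, 0.151) were below all controls with KLF5 without passing. PKM was 1959 and 1279, on either side of the controls. LDHA was 166 and 212 with KLF5, a difference of −0.48 (adjusted p = 0.177). GPI and HK1, which begin the pathway, had differences of 0.19 and −0.21, and HK2 and ENO2 values of 12.1 and 15.2, and of 14.9 and 29.2, overlapped the controls.

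**Figure D4:**
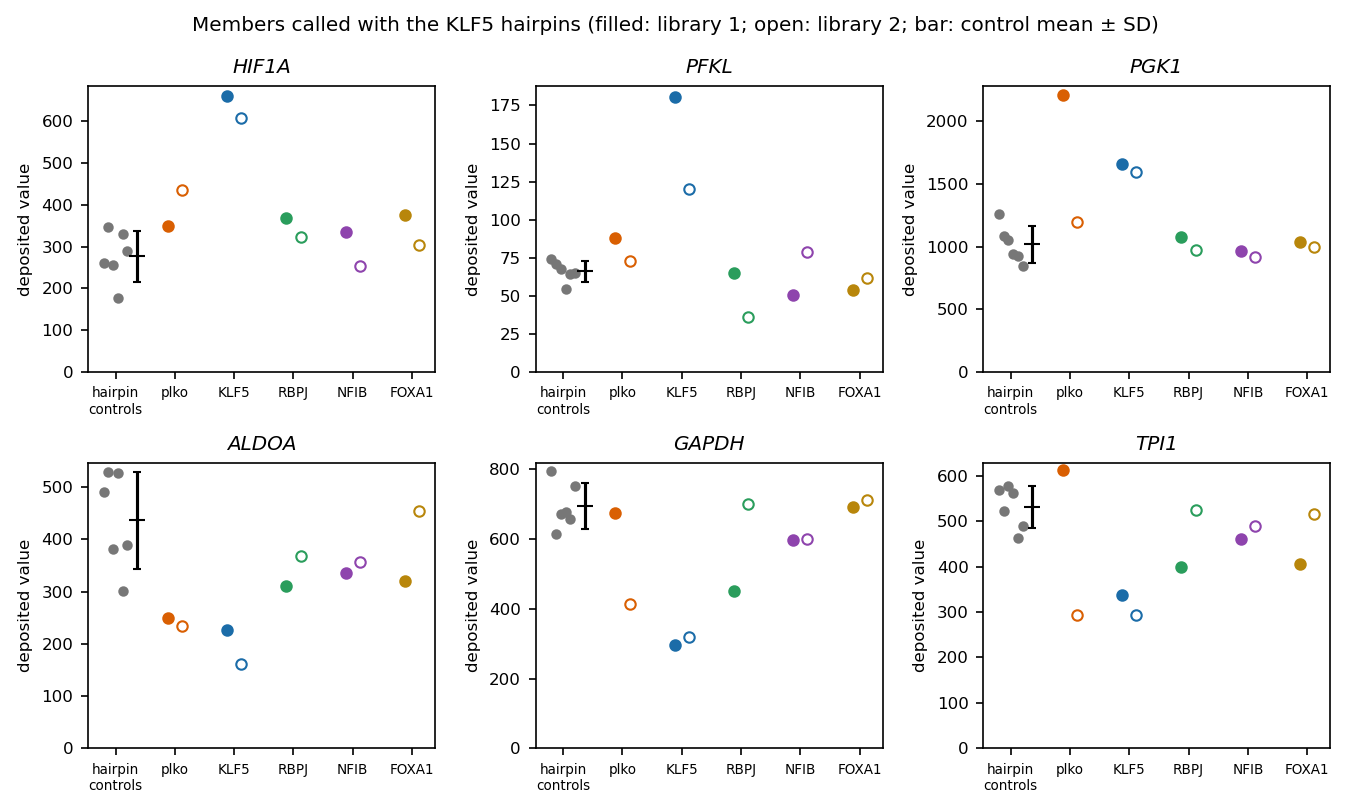
Deposited values (vertical axes, linear, each from 0) of HIF1A, PFKL, PGK1, ALDOA, GAPDH and TPI1, members called with KLF5 against the hairpin controls. Points are the 6 controls (gray, with mean and SD) and the 2 libraries of each other construct (filled for library 1, open for library 2). PLOD1, which was also called, is not drawn. Both KLF5 libraries lie above every control for HIF1A, PFKL and PGK1 and below every control for ALDOA, GAPDH and TPI1.

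GAPDH and HIF1A passed whichever KLF5 library was left out. PFKL did not without KLF5 1 (0.86, adjusted p = 0.132), nor ALDOA without KLF5 2 (−0.91, 0.0605), and TPI1, PGK1 and PLOD1 did not without either; PGK1 was also lost without shLUC 2 (0.64, 0.0549). With plko added to the controls, 4 of the 7 remained (PFKL 1.08, ALDOA −0.95, GAPDH −1.07 and HIF1A 1.09), where 5.37% of all genes passed, and TPI1 (−0.67, adjusted p = 0.0819), PGK1 (0.52, 0.248) and PLOD1 (−1.04, 0.0551) did not. GAPDH, ALDOA, TPI1, PGK1, ENO1, PKM and LDHA have processed pseudogenes that are near-identical at the 3′ end, so reads may be shared with those copies.

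The ratio of the 2 phosphofructokinase genes was above every control in both KLF5 libraries and in both plko libraries. PFKL divided by PFKP was between 0.173 and 0.234 in the 6 controls, and 0.841 and 0.477 in the KLF5 libraries. PFKP was below every control in both KLF5 libraries and in both plko libraries, and the ratio was 0.325 and 0.547 with plko. It was 0.240 and 0.0782 in the libraries labelled RBPJ 1 and RBPJ 2, 0.167 and 0.317 with NFIB, and 0.180 and 0.206 with FOXA1. The ratio was not tested separately.

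Against plko in place of the hairpin controls, no member passed with KLF5 hairpins by limma or edgeR, and 2 passed by DESeq2 (GAPDH lower, PKM higher). Limma called 3.44% of all genes, and DESeq2 5.39% of those given an adjusted p. At an unadjusted p under 0.05 there were 10 members and 2090 genes. P4HA1 (−1.53, adjusted p = 0.0663), GAPDH (−0.78, 0.0691), PKM (0.72, 0.085), PFKL (0.87, 0.0932) and HIF1A (0.70, 0.129) came nearest. DDIT4 had the lowest difference (−1.85, adjusted p = 0.219), at 23.5 and 10.5 against 161 and 21.7. Of the 20 HIF targets 19 had a negative difference, with a median of −0.89, beside −0.09 for the enzymes. That median rests on plko 1: without plko 2, 12 members passed, all lower with KLF5, led by ADM (−3.17, adjusted p = 0.000264) and NDRG1 (−2.83, 0.000453). In that fit 2.92% of all genes were called lower, and the other groups supply the spread for the lone plko 1 library.

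LDHA was the enzyme with the smallest p in both the RBPJ and the NFIB comparison. It was 122 and 205 with RBPJ (−0.73, adjusted p = 0.39) and 152 and 180.1 with NFIB (−0.66, adjusted p = 0.634), below every control in all 4 libraries, as 4.03% of all genes were in both RBPJ libraries and 4.47% in both NFIB libraries, while it was 278 and 248 with FOXA1. With NFIB, 0 of 13 enzymes had a positive difference, where 5893 of 10826 genes had one, and the enzyme median was −0.17. The RBPJ and FOXA1 medians were −0.21 and −0.17, and these comparisons share the 6 hairpin controls. Single controls shifted as far. In shLUC 1, 0 of 13 enzymes were above the control mean (median −0.24), and in shRFP 1 all 13 were (median 0.20). HK2 was 23.0 and 22.5 with FOXA1, above 9.64, 12.6 and 16.9 in the controls, as 4.58% of all genes were, a difference of 0.78 (adjusted p = 0.61). It was 11.2 and 16.6 with RBPJ and 12.3 and 11.8 with NFIB. For the other called enzymes, PKM was 1194 and 1514 with RBPJ, 1368 and 1677 with NFIB, and 1518 and 1471 with FOXA1; PFKP was 272 and 461, 303 and 247, and 299.6 and 299 in the same order; and ENO1 was 2745 and 3954, 3369.6 and 2958, and 3077 and 3329.

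HIF1A gave the largest rise of the set with KLF5. It was 660.4 and 607 there, against 178, 275 and 346 in the controls, a log2 difference of 1.22 (SE 0.21, limma adjusted p = 0.000427). It was 349 and 436 with plko, also above every control as were 9.94% of all genes (0.53, adjusted p = 0.131), 368 and 322 with RBPJ, 336 and 254 with NFIB, and 376 and 303 with FOXA1. KLF5 1 and KLF5 2 were thus the 2 highest libraries. HIF1A overlaps antisense transcripts, and no label says whether the authors counted by strand. Of 13 further genes of the HIF machinery that were tested, 1 rose with KLF5, where 4.42% of all genes were called higher. It was EP300, the coactivator that HIF recruits (80.3 and 72.3 against 44.0 ± 9.14, log2 difference 0.81, limma adjusted p = 0.0263). None passed with plko, RBPJ, NFIB or FOXA1, nor for KLF5 against plko.

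Where HIF1A was highest, its targets other than the enzymes were not: KLF5 1 and KLF5 2 lay at medians of −0.01 and 0.23 over the 20 targets, and plko 1 at 1.65 with HIF1A 0.37 above the control mean, all on the log2 scale. Set against each other within each library, the enzyme median minus the HIF target median ranged from −0.26 to 0.09 over the 6 controls. It was −1.57 in plko 1 and −0.50 in plko 2. It was −0.25 and −0.54 with KLF5, −0.49 and 0.41 in the libraries labelled RBPJ 1 and RBPJ 2, −0.10 and 0.27 with NFIB, and −0.11 and 0.01 with FOXA1. The plko 1 value lay farthest from the controls, and FOXA1 was the one target with both libraries inside their range. These are descriptions of lists chosen by name, with no test.

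**Figure D5:**
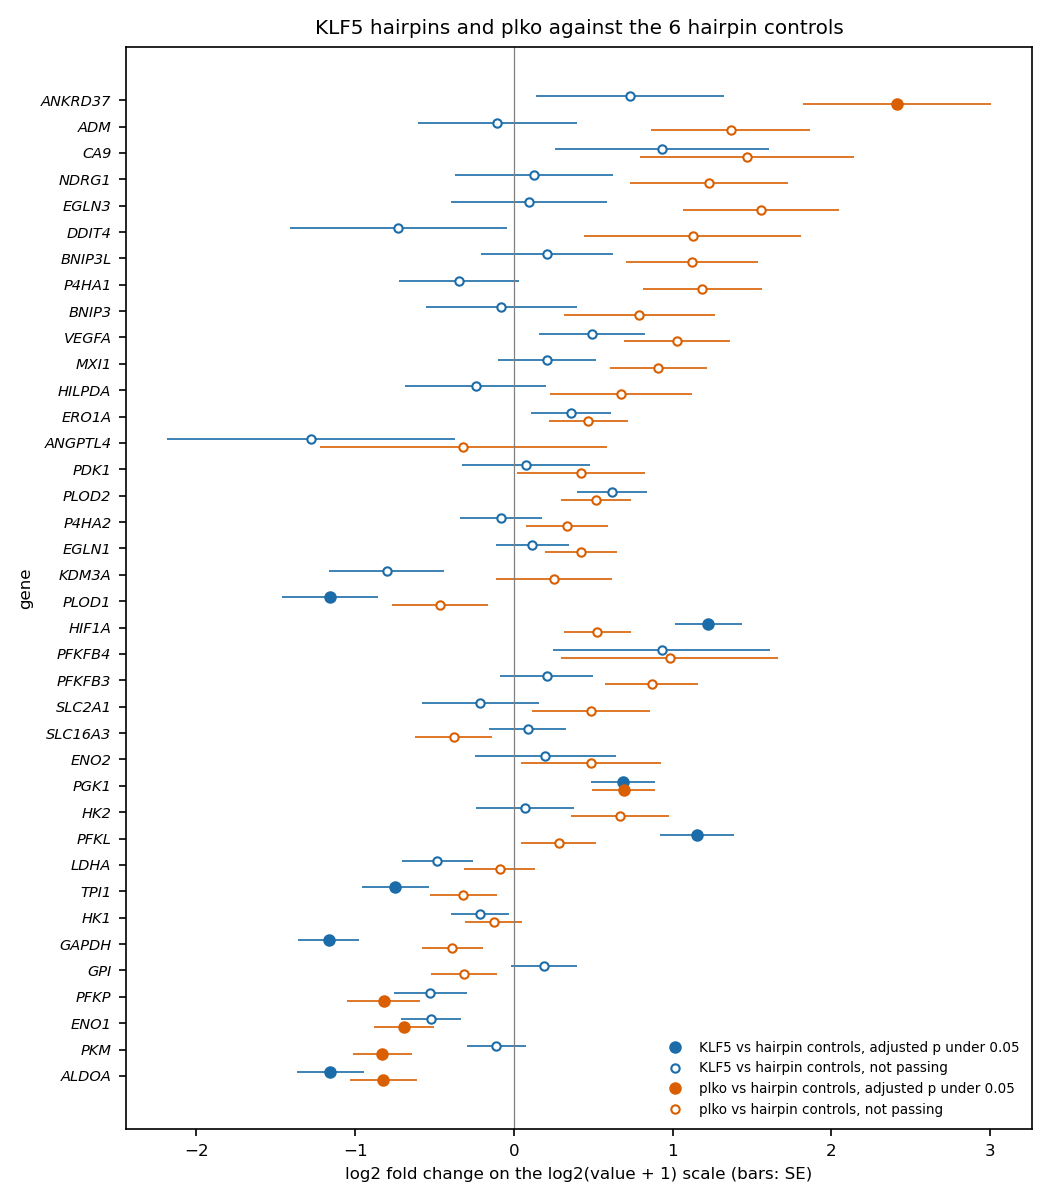
Log2 differences (horizontal axis) with their standard errors for each of the 38 members (vertical axis, by group) in KLF5 and in plko against the hairpin controls, with filled points for those with an adjusted p under 0.05. The enzymes called in plko are PGK1, PFKP, ALDOA, ENO1 and PKM, and in KLF5 PFKL, PGK1, ALDOA, TPI1 and GAPDH, so ALDOA and PGK1 are called in both.

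The pentose phosphate genes that branch off glycolysis were lower with KLF5 as well. Of 27 neighbouring carbon metabolism genes tested, 5 fell and 1 rose, against 6.61% lower and 4.42% higher of all genes. PGD, which yields NADPH, was 82.5 and 59.5 against 227 ± 19.7 (log2 difference −1.67, limma adjusted p = 7.21e-06). The non-oxidative enzymes TALDO1 (22.7 and 35.0 against 76.3 ± 6.49, −1.40, 0.000328) and TKT (139 and 181 against 347 ± 105, −1.07, 0.00773) fell. So did the gluconeogenic FBP1 (53.3 and 36.2 against 92.5 ± 20.3, −1.03, 0.0172) and PDHA1, a subunit of pyruvate dehydrogenase (56.9 and 57.2 against 98.7 ± 5.23, −0.78, 0.00916). PDP1, the phosphatase that activates that complex, rose (124 and 119 against 76.2 ± 12.5, 0.68, 0.0399). With plko, PGD fell (94.9 and 81.8, −1.35, 0.000268), also without plko 1 (−1.45, 0.00565). FBP1 was the single one of the 27 that passed for KLF5 against plko (−1.42, 0.0257; without plko 1 −1.44, 0.227), and none passed with RBPJ, NFIB or FOXA1.

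Other cell markers moved with the same groups. Of 10 epithelial markers 4 fell with KLF5 (KRT6A, KRT8, KRT18 and KRT19) and 3 with plko (KRT8, KRT18 and KRT19). Without plko 1, KRT8 still fell with plko (−3.84, limma adjusted p = 1.63e-05), while KRT18 (−1.18, 0.223) and KRT19 (−0.82, 0.189) did not pass. The summed markers ranged from 9089 to 11523 in the controls, 7931 to 8446 with KLF5 and 7941 to 8899.9 with plko. The 5 fibroblast and endothelial markers in the table summed to 13.2 to 31.5 in the controls, 46.2 to 50.2 with KLF5, 49.2 to 51.0 with NFIB and 13.2 to 24.2 with plko, and COL1A1 rose with KLF5 (27.0 and 29.2 against 11.7 ± 7.10, 1.33, limma adjusted p = 0.0291). The 2 leukocyte markers summed to 21.6 to 34.3 in the controls, 18.5 to 23.3 with KLF5 and 8.82 to 26.0 with plko. Their part in the results for the enzymes and HIF targets was not tested.

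Direct contrasts between the 4 targets were run for all 6 pairs. KLF5 differed from each of the others in PFKL, GAPDH and HIF1A. For PFKL the log2 difference was 1.58 from RBPJ, 1.21 from NFIB and 1.34 from FOXA1 (limma adjusted p = 0.00223, 0.0126 and 0.00663). ALDOA passed against NFIB and FOXA1, PLOD2 against RBPJ and NFIB, ERO1A against NFIB and PLOD1 against FOXA1. In these 3 pairs limma called 5.68%, 6.84% and 6.11% of all genes. No member passed between RBPJ, NFIB and FOXA1 by limma, where 0% (RBPJ and NFIB), 0.12% (RBPJ and FOXA1) and 0.0554% (NFIB and FOXA1) of all genes did; at an unadjusted p under 0.05 there were 0, 3 and 3 members.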

How the data were processed

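RNA of 16 HCC70 libraries was counted by CEL-seq, per the labels' protocols, which state that cDNA was barcoded in batches of 12 samples and that weakly represented samples went through another run, without saying which. The authors deposited 1 table of gene signal that its name calls DESeq2-normalised, on GRCh37 per the submitters' processing notes. For the aligner, annotation, molecular identifiers and strand, the labels and the table give nothing. All values were whole multiples of 1 value per library (100% within 0.05 of a whole read), so read counts could be recovered from the deposited values. There were 2 columns that matched no sample and were not used. Of 11282 identifiers 11259 matched a symbol.

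Values were tested as log2(value + 1) with limma 3.58.1 (R 4.3.3, trended variance, 2-sided, Benjamini-Hochberg over 10826 genes, threshold 0.05). The fit held all 16 libraries with 6 levels: hairpin controls, plko, KLF5, RBPJ, NFIB and FOXA1. Genes reaching 5 in fewer than 2 libraries (456) were removed. On the recovered reads, edgeR 4.0.16 called 1171 genes with KLF5 and 382 with plko against the hairpin controls, and DESeq2 1.42.0 called 1086 and 485. Differences on the log2(value + 1) scale understate changes of low genes. The scripts were tested on simulated data.

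The members and all gene lists were chosen with earlier results of these data known, and plko was kept apart for the same reason. Every member is named. Values in every library are given for members that pass in any of the 6 comparisons, for CA9, VEGFA, SLC2A1, PDK1, LDHA, GAPDH and HIF1A, for the 3 members farthest above and the 3 farthest below the controls in plko 1, and for the member with the largest change each way in each comparison. Genes of the non-member lists are named where they pass, except for 1 result that is not reported here, and the examples that plko 1 raised were picked after their values were seen. Promoter letters came from RefSeq. Counting error sets the precision of low values: 1 read equals 2.21 in plko 1 and 0.249 in RBPJ 1.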

Additional observations from a re-analysis of the deposited data

Results flagged for a closer look

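Among the 6 hairpin controls, each of the 38 members was examined for a library far from the rest, which chance alone flags in about 1 of 20 groups. EGLN3 was 23.6 in shLACZ 2 with the next control at 14.97, a gap of 0.672 of the range, and ANGPTL4 was 32.0 in shLUC 2 with the next at 11.8, a gap of 0.686 of the range, where the critical value is 0.625.

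The other flagged results are differences of KLF5 from another target, each tested directly with limma. From RBPJ, KLF5 differed in PFKL (log2 difference 1.58, adjusted p = 0.00223), PLOD2 (1.23, 0.00872), HIF1A (0.88, 0.0454) and GAPDH (−0.87, 0.0312). From NFIB, it differed in PFKL (1.21, 0.0126), PLOD2 (1.15, 0.0112), HIF1A (1.11, 0.0107), ERO1A (1.05, 0.0404), ALDOA (−0.85, 0.0478) and GAPDH (−0.96, 0.016). From FOXA1, it differed in PFKL (1.34, 0.00663), HIF1A (0.90, 0.0367), ALDOA (−0.99, 0.0232), GAPDH (−1.19, 0.00378) and PLOD1 (−1.22, 0.0496). PFKL, GAPDH and HIF1A passed in all 3 pairs.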

How the results depend on the processing

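No call turned its direction under any alternative. Counts of members called with KLF5 (7), RBPJ, NFIB, FOXA1 (0 each), plko (6) and KLF5 against plko (0) stayed within 1.5 times under pseudocounts of 0.5 and 5, no filter, a minimum of 20, TMM rescaling and edgeR. With all 8 controls the KLF5 count was 4; DESeq2 gave 11 for plko and 2 for KLF5 against plko; fitting only the 2 groups compared gave 11 for plko. Leaving out 1 library at a time gave 3 to 9 members for KLF5, 0 to 4 for RBPJ, 0 for NFIB and FOXA1, 1 to 16 for plko and 0 to 12 for KLF5 against plko. Counts over all genes moved by over 1.5 times in these cases: for KLF5 (1194) all 8 controls gave 581, for plko (812) edgeR gave 382 and DESeq2 485, and for KLF5 against plko (372) edgeR gave 146 and the 2 groups alone 121. For RBPJ (3) a pseudocount of 5 gave 9, edgeR 1, DESeq2 29 and the 2 groups alone 6; for NFIB (1) TMM gave 2, edgeR 0, DESeq2 4 and the 2 groups alone 5; for FOXA1 (1) a pseudocount of 5 and DESeq2 gave 2 each and the 2 groups alone 13. PFKP was not called by edgeR in plko (adjusted p = 0.0646). Leaving out RBPJ 1 or RBPJ 2 gave 2 members, GAPDH and P4HA1, for KLF5 against plko. Replicate numbers do not pair the libraries: of 28 pairs of constructs 3 had a correlation over 0.1 (range −0.19 to 0.22), and a replicate block gave 7 members for KLF5, 8 for plko and 0 for the other 4 comparisons.

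The enzyme median minus the HIF target median was −0.30 (KLF5), −0.01 (RBPJ), −0.02 (NFIB), −0.15 (FOXA1), −1.16 (plko) and 0.81 (KLF5 against plko). With all 8 controls, which raises the control level of the HIF targets through plko 1, it was −0.0098 for KLF5, 0.27 (RBPJ), 0.31 (NFIB) and 0.24 (FOXA1). By edgeR it was 0.13 for NFIB and 0.98 for KLF5 against plko, by DESeq2 1.06 and with a pseudocount of 5 0.65 for the latter; with SLC2A1, SLC16A3, PFKFB3 and PFKFB4 among the enzymes it was −0.98 for plko. Leave-one-out ranges were −0.54 to −0.21 (KLF5), −0.49 to 0.41 (RBPJ), −0.10 to 0.27 for NFIB, −0.19 to 0.0060 for FOXA1, −1.57 to −0.50 for plko and 0.31 to 1.46 for KLF5 against plko, so the signs for RBPJ, NFIB and FOXA1 rest on single libraries. The cause of these moves was not tested.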
